A study of Mus musculus with 120 samples.

Results

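The 10 genes described here mark 2 parts of the mouse hippocampus. C1ql2, C1ql3, Lct, Dsp, Prox1 and Tdo2 were taken as genes of the dentate gyrus, and Wfs1, Fibcd1, Spink8 and Neurod6 as genes of the CA fields. They were matched by symbol, and all 10 were found once among the 55573 annotated genes of each age. The mice model spinocerebellar ataxia type 1, in which an expanded polyglutamine stretch of ataxin-1 leads to progressive loss of coordination. WT mice were compared with knock-in mice that carry one expanded allele of the endogenous Atxn1 gene beside a normal one (Atxn1 175Q/2Q, named 175Q), and with mice whose expanded allele also has the K772T change (Atxn1 175QK772T/2Q, named 175QK772T). According to the title, the study asked what happens when less mutant ataxin-1 reaches the nucleus; K772 lies in its nuclear localization signal. All mice were C57BL/6J, with 4 mice per genotype at 10 weeks and 4 others at 26 weeks. Each of the 24 mice gave 5 regions, the hippocampus among them, and every group had 2 females and 2 males except 175QK772T at 10 weeks, with 3 females and 1 male.

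Granule cells of the dentate gyrus receive the main cortical input of the hippocampus and send their axons, the mossy fibres, to CA3, whose pyramidal cells in turn project to CA1. The circuit serves spatial and episodic memory, and the dentate gyrus goes on adding new granule cells in adult life. Each cell sheet keeps a characteristic set of transcripts, such as the homeobox gene Prox1 in granule cells and the wolframin gene Wfs1 in CA1.

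Hippocampal libraries held 74.2 M to 102 M counted read pairs at 10 weeks and 30.2 M to 53.1 M at 26 weeks, and 4.77 to 5.67% of the pairs came from mitochondrial genes. Levels are given as CPM, a gene's counted read pairs scaled to one common library total, and a mean is followed by the SD of 4 mice. Fold changes are on the log2 scale with their SE, from edgeR's quasi-likelihood test with genotype and sex as terms. A gene was called where its Benjamini-Hochberg adjusted p over all genes tested was below 0.05, and "rose" or "fell" is used only of called genes. The p-values weigh a difference against the spread between mice within genotypes, estimated over all 3 genotypes together. Atxn1 itself, a check of the labels at the transcript level only since the counts do not separate the alleles, had hippocampal means at 10 weeks of 75.0 ± 2.30 CPM (WT), 94.3 ± 5.95 CPM (175Q) and 102 ± 5.23 CPM (175QK772T). At 26 weeks these means were 81.0, 96.3 and 105 CPM. Some libraries stood apart. Ttr, the transthyretin gene that defines choroid plexus, was above 500 CPM in 1 hippocampal library of every group, the highest being 7700 CPM in mouse 2 of 175Q at 26 weeks, and calls that change without these 6 libraries are named beside their values. In the cortex at 26 weeks, mouse 1 of WT had Neurod6 at 17.2 CPM against 71.2 to 84.6 in the other 3 WT mice, and Atxn1 at 51.8 CPM against 101 to 112.

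Promoter sequence is shown for C1ql2 and Lct, the pair of genes that fell most in the hippocampus of 175Q. It is also shown for Dsp, which in 175Q fell there and rose in cortex and striatum at 10 weeks. Neurod6 is shown as the one member whose window held an octamer of Capicua, a repressor that ataxin-1 binds. The windows are the 250 bases before the RefSeq gene start in GRCm38.p6, 5′ to 3′ on the strand of the gene: chr1:120340332-120340581 (plus strand, 68.8% G and C) for C1ql2, chr1:128328319-128328568 (minus strand, 42.8%) for Lct, chr13:38151044-38151293 (plus strand, 72.4%) for Dsp and chr6:55681264-55681513 (minus strand, 46%) for Neurod6. Capitals mark the GC box GGGCGG or its reverse complement CCGCCC in Dsp and the octamer TGAATGGA in Neurod6, and the C1ql2 and Lct windows held none of the motifs searched.
C1ql2: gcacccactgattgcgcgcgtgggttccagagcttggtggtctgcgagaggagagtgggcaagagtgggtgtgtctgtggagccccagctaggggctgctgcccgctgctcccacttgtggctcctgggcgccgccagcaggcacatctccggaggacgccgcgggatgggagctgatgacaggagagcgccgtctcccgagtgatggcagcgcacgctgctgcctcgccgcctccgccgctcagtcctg
Lct: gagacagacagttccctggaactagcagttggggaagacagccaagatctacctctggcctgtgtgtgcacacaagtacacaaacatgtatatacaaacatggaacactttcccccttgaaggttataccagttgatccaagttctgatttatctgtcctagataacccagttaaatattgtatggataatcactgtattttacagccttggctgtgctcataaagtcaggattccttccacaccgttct
Dsp: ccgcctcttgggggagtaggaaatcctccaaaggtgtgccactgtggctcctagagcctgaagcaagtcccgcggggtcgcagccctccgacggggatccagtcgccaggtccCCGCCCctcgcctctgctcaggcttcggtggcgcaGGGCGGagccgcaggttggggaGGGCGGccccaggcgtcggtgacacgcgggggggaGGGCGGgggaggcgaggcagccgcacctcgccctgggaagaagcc
Neurod6: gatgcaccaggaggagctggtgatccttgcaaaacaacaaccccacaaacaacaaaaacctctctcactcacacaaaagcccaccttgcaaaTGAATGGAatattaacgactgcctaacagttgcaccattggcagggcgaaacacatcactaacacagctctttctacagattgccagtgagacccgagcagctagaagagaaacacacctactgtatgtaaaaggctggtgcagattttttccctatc
RefSeq gave 10 windows for 9 members, and Spink8 had no entry. Both strands were searched for TGAATGAA, TGAATGGA and TCAATGAA, the octamers of Capicua, for CAGATG, an E-box of neuronal basic helix-loop-helix factors, and for GGGCGG. TGAATGGA was in the Neurod6 window, 158 bases before the start, and in 1.01% of all 32851 windows. No member window held TGAATGAA (1.08% of all windows) or TCAATGAA (0.642%). CAGATG was in the windows of Prox1 and Wfs1 (14.4% of all), and GGGCGG in 6 windows, of C1ql3, Dsp, Fibcd1, Prox1 and Wfs1 (32.7% of all), with 4 matches in Dsp. A match describes these letters and is not a binding site.

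In WT mice the hippocampus had the highest mean CPM of the 5 regions for 9 of the 10 genes at 10 weeks and for all 10 at 26 weeks. Its level stood furthest above the next region for Lct, 31.6-fold over brainstem at 10 weeks and 31.5-fold over cortex at 26 weeks, and for Dsp (26.6-fold and 14-fold, over brainstem and medulla), Spink8 (19.7-fold and 28-fold, over striatum) and C1ql2 (13.7-fold and 12.1-fold, over brainstem and medulla). Fibcd1 was 8.29-fold and 8.67-fold above striatum, and Neurod6 3.35-fold and 2.80-fold above cortex. The hippocampal WT values of these 6 genes did not overlap those of any other region at either age. The other 4, Prox1, C1ql3, Tdo2 and Wfs1, were less restricted. Prox1 was 2.23-fold and 1.71-fold above cerebellum without overlap, while C1ql3 in cortex and Tdo2 in cerebellum overlapped the hippocampus at 26 weeks. Wfs1 went against its label as a marker of the hippocampus at 10 weeks, with 126 ± 15.2 CPM in hippocampus and 134 ± 16.6 CPM in striatum, and the values of the 2 regions overlapped at both ages. Per kb of exon, which allows genes to be compared, Neurod6 had the highest level in WT hippocampus at 10 weeks with 93.3 CPM per kb, and Tdo2 the lowest with 1.86 CPM per kb.

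**Figure D1:**
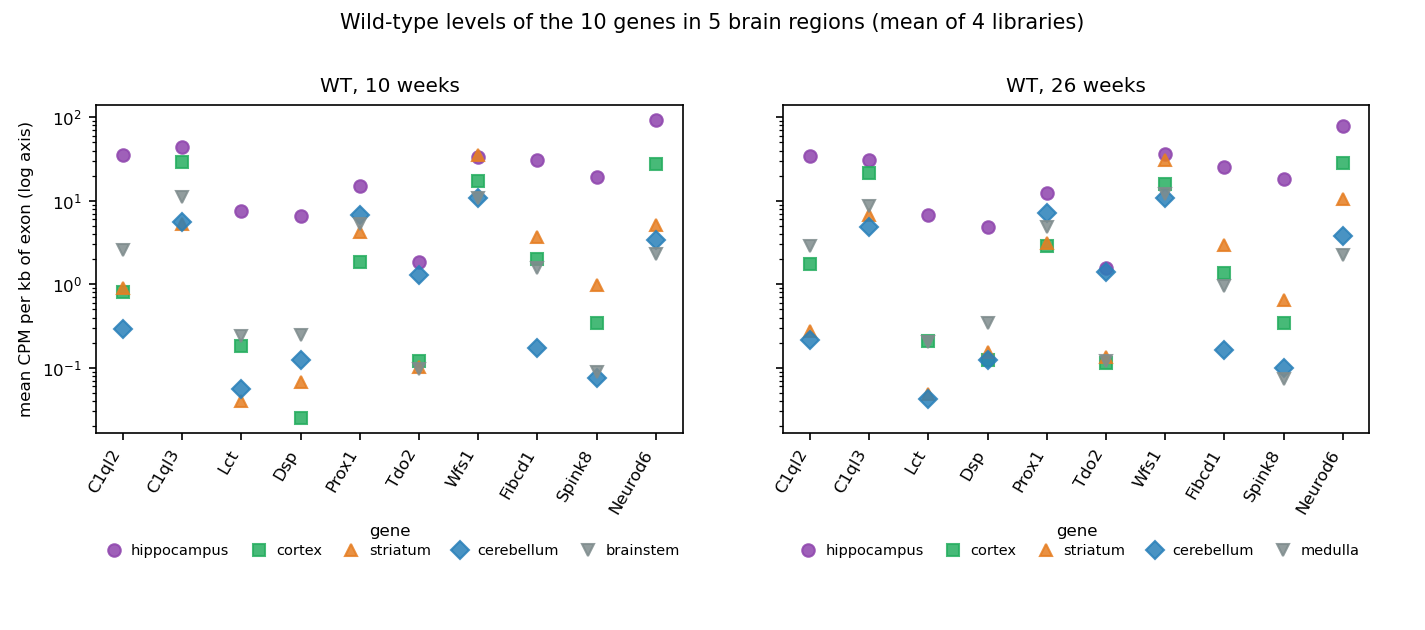
Mean WT level of each gene in CPM per kb of exon (log axis) in 5 regions at 10 weeks (left) and 26 weeks (right), 4 mice per point. The hippocampus is the top point for 9 of 10 genes at 10 weeks, the exception being Wfs1, and for all 10 at 26 weeks, and Lct stands furthest above the next region.

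In the hippocampus of 175Q mice, 9 of the 10 genes fell against WT at 10 weeks and all 10 at 26 weeks. Of all 21071 genes tested at 10 weeks, 19.6% were called, 9.90% lower, and at 26 weeks 40.8% of 19809 were called, 20.4% lower. These shares are given for scale and are no test of the set, since the members were chosen with earlier results of these data known. The median log2 fold change of the 10 genes was -0.71 at 10 weeks and -1.72 at 26 weeks, where the median of all genes tested was 0.01 and 0.00. Values of WT and 175Q mice did not overlap for 7 genes at 10 weeks and for all 10 at 26 weeks, with 175Q lower each time. Of all genes tested, 26.9% and 41.1% had no overlap in CPM at the 2 ages, and in 7.99% and 12% all 175Q mice were the lower ones. The dentate genes had a median of -0.96 and -2.15 at the 2 ages and the CA genes -0.63 and -1.72. The sets overlapped: dentate genes ran from -1.92 to -0.30 and from -4.15 to -0.62, and CA genes from -1.61 to -0.38 and from -1.81 to -1.59. At 26 weeks Prox1, C1ql3 and Tdo2 fell less than any CA gene. In these bulk libraries, fewer cells of a type and less RNA per cell cannot be told apart.

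**Figure D2:**
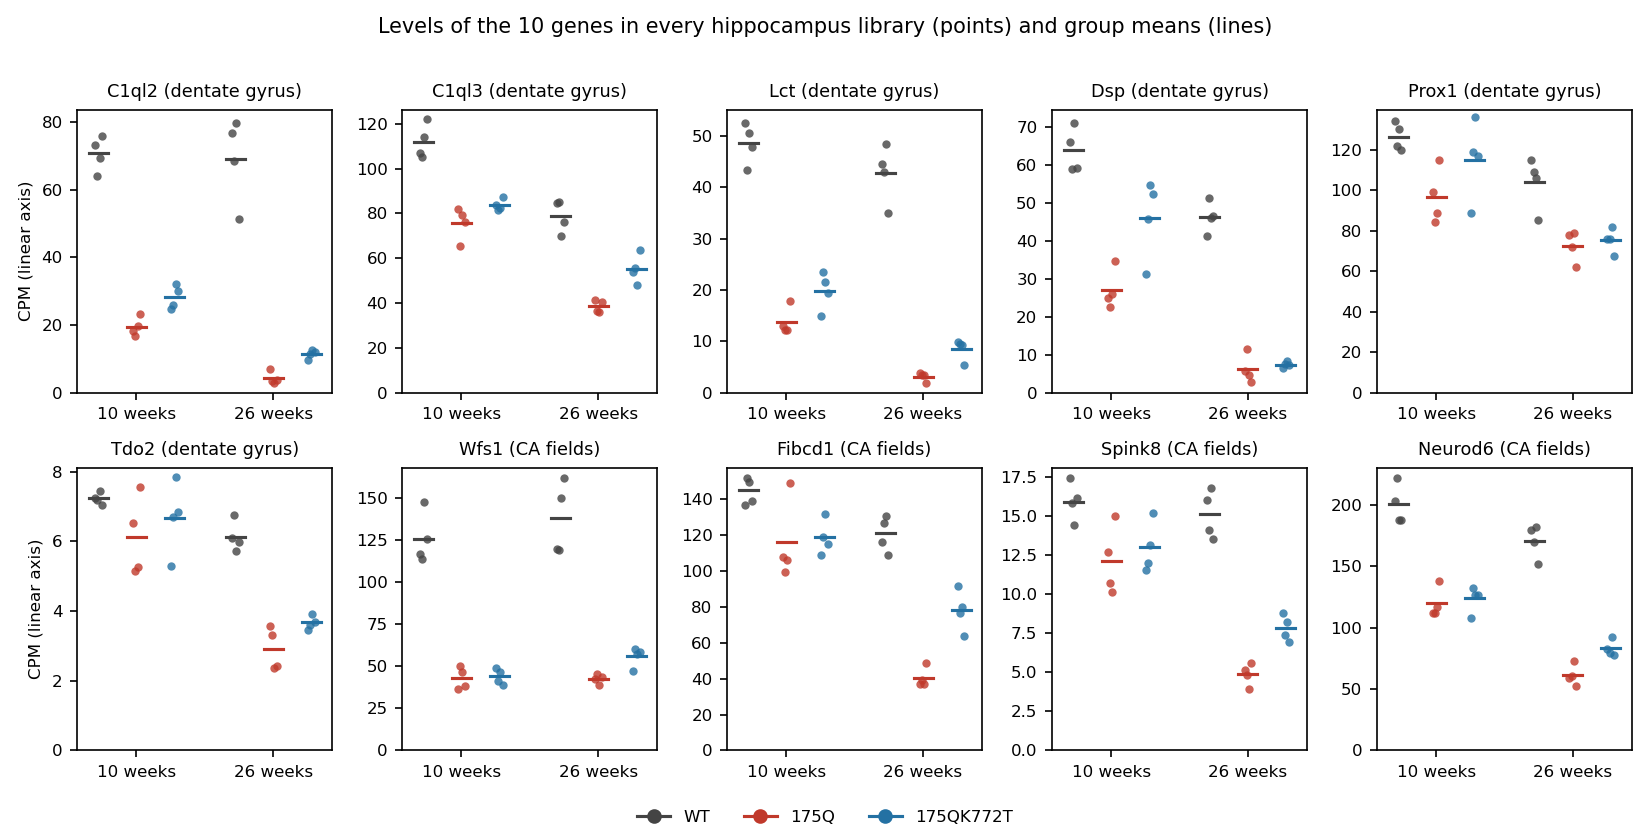
Level of each gene in CPM (linear axis from 0) in every hippocampus library, WT in black, 175Q in red and 175QK772T in blue, with 4 points per group and a line at the mean. In every panel the line of 175QK772T lies between those of WT and 175Q, and at 26 weeks the WT points lie above all points of both mutants.

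C1ql2 (ENSMUSG00000036907, GRCm38 chr1:120340582-120343174, plus strand) encodes a secreted C1q-like protein that granule cells release at mossy fibre synapses, where it binds kainate receptors. At 10 weeks the 4 WT mice had 63.9, 69.5, 73.1 and 76.0 CPM, the 175Q mice 16.7, 18.3, 19.7 and 23.1 CPM, and the 175QK772T mice 24.8, 25.9, 30 and 32.2 CPM. At 26 weeks WT mice had 51.4, 68.5, 76.7 and 79.8 CPM, 175Q mice 2.75, 3.48, 3.69 and 6.98 CPM, and 175QK772T mice 9.52, 11.3, 11.9 and 12.7 CPM. The 3 genotypes did not overlap at either age, and 175Q was lowest both times. C1ql2 fell in 175Q, with a log2 fold change of -1.92 ± 0.10 at 10 weeks (adjusted p = 2.15e-07), which is 3.79-fold lower, and -4.15 ± 0.23 at 26 weeks (1.35e-08), which is 17.7-fold lower. The 26-week mean in 175Q was 6.11% of the WT mean.

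C1ql3 (ENSMUSG00000049630, chr2:13003457-13011806, minus strand), the related ligand that shares these synapses but is also made in cortex, showed smaller differences. WT mice had 105 to 122 CPM at 10 weeks, 175Q mice 65.3 to 82.1 CPM and 175QK772T mice 81.5 to 87.1 CPM, so that only the mutants overlapped. At 26 weeks WT mice had 69.9 to 84.9 CPM, 175Q mice 35.9 to 41.3 CPM and 175QK772T mice 47.9 to 63.7 CPM, with no overlap. It fell in 175Q, with a log2 fold change of -0.62 ± 0.06 at 10 weeks and -1.15 ± 0.08 at 26 weeks (adjusted p = 1.96e-05 and 1.36e-07). Gm37811 and Gm37824 overlap C1ql3 on the other strand, and the strand setting of the 26-week counts is not given in the sources used here.

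Lct (ENSMUSG00000026354, chr1:128284756-128328318, minus strand) encodes lactase, known from the gut, and its transcript marks granule cells in the brain. At 10 weeks WT mice had 43.3, 47.8, 50.5 and 52.6 CPM, 175Q mice 12.1, 12.2, 12.9 and 17.8 CPM, and 175QK772T mice 14.9, 19.4, 21.5 and 23.5 CPM. At 26 weeks WT mice had 34.9, 43, 44.5 and 48.5 CPM, 175Q mice 1.88, 3.38, 3.46 and 3.74 CPM, and 175QK772T mice 5.34, 9.20, 9.41 and 9.77 CPM. Both mutants lay below every WT mouse at both ages, and they were separate from each other at 26 weeks only. Lct fell in 175Q 3.67-fold at 10 weeks (log2 fold change -1.88 ± 0.15, adjusted p = 4.7e-06) and 14.8-fold at 26 weeks (-3.88 ± 0.21, 8.73e-09).

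Dsp (ENSMUSG00000054889, chr13:38151294-38198577, plus strand) encodes desmoplakin, which ties desmosomes to intermediate filaments in epithelia and heart and is a granule cell transcript in the hippocampus. WT mice had 58.9, 59.2, 66.2 and 71.2 CPM at 10 weeks, 175Q mice 22.5, 24.9, 26.1 and 34.7 CPM, and 175QK772T mice 31.4, 45.9, 52.5 and 54.8 CPM. In the 26-week mice, WT had 41.3, 46, 46.5 and 51.2 CPM, 175Q mice 2.87, 4.52, 5.77 and 11.4 CPM, and 175QK772T mice 6.34, 7.36, 7.56 and 8.23 CPM. The mutants were apart from WT at both ages and overlapped each other, with 175QK772T at 72.2% of the WT mean at 10 weeks and 16% at 26 weeks. In 175Q, Dsp fell, with a log2 fold change of -1.31 ± 0.16 at 10 weeks (adjusted p = 0.000134) and -3.11 ± 0.23 at 26 weeks (1.39e-07, 8.63-fold lower). Dsp lies 7.35 Mb from Atxn1 on chromosome 13, and the predicted gene Gm10129 overlaps it on the other strand.

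Prox1 (ENSMUSG00000010175, chr1:190118035-190170714, minus strand), the homeobox factor that specifies granule cells and keeps them distinct from CA3 cells, changed least in 175Q at 26 weeks. WT mice had 120 to 134 CPM at 10 weeks and 85.1 to 115 CPM at 26 weeks, and 175Q mice had 84.1 to 115 and 61.8 to 79.0 CPM, below every WT mouse at both ages. The 175QK772T mice, with 88.9 to 136 and 67.3 to 81.8 CPM, overlapped WT at 10 weeks and 175Q at both. It fell, with a log2 fold change of -0.44 ± 0.12 at 10 weeks (adjusted p = 0.0203) and -0.62 ± 0.10 at 26 weeks (0.000135), to 70.0% of the WT mean. Its 10-week call was lost when any of 4 mice was left out (175Q 2 or 3, WT 1 or 3; adjusted p 0.0554 to 0.0636). Prox1os and Gm28172 overlap it on the other strand.

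Tdo2 (ENSMUSG00000028011, chr3:81957090-81976202, minus strand) encodes tryptophan dioxygenase, the entry enzyme of the kynurenine pathway, and was the least abundant member per kb in WT hippocampus. At 10 weeks WT mice had 7.04 to 7.44 CPM and 175Q mice 5.16 to 7.56 CPM, with overlap, and the log2 fold change of -0.30 ± 0.14 was not called (adjusted p = 0.170). For mice of 26 weeks, WT had 5.73 to 6.74 CPM and 175Q mice 2.37 to 3.57 CPM, and Tdo2 fell, with a log2 fold change of -1.20 ± 0.12 (2.64e-06). The 175QK772T mice had 5.29 to 7.84 CPM at 10 weeks, overlapping both other groups, and 3.46 to 3.92 CPM at 26 weeks, below WT. Without mouse 4 of 175Q, the highest of its group, the 10-week difference was called (-0.43, adjusted p = 0.0497).

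Of the CA genes, Wfs1 (ENSMUSG00000039474, chr5:36966104-36989205, minus strand) was lowest relative to WT at both ages. Wolframin is a membrane protein of the endoplasmic reticulum, lost in Wolfram syndrome, and its transcript marks CA1. At 10 weeks WT mice had 114, 117, 126 and 148 CPM, 175Q mice 36.5, 38.1, 46.6 and 50.4 CPM, and 175QK772T mice 38.7, 41.5, 46.6 and 49.1 CPM. The older WT mice had 119, 120, 150 and 162 CPM, 175Q mice 38.9, 42.7, 43.5 and 45.3 CPM, and 175QK772T mice 47.2, 57.2, 58.7 and 60.5 CPM. Both mutants lay far below WT without overlap at each age, and at 10 weeks their values were interleaved. Wfs1 fell in 175Q 3.05-fold at 10 weeks (-1.61 ± 0.11, adjusted p = 9.51e-07) and 3.50-fold at 26 weeks (-1.81 ± 0.10, 1.48e-08).

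Fibcd1 (ENSMUSG00000026841, chr2:31813290-31846005, minus strand), a membrane receptor with a fibrinogen-like domain, showed a small difference at 10 weeks and a large one at 26 weeks. WT mice had 137, 139, 150 and 152 CPM at 10 weeks, 175Q mice 99.3, 106, 108 and 149 CPM, and 175QK772T mice 109, 115, 119 and 132 CPM. In the 26-week mice, WT had 109, 116, 127 and 131 CPM, 175Q mice 36.9, 37, 39.5 and 48.5 CPM, and 175QK772T mice 64.1, 76.9, 80.2 and 91.8 CPM. One 175Q mouse was within the WT range at 10 weeks, and at 26 weeks the 3 genotypes were apart. Fibcd1 fell, with a log2 fold change of -0.38 ± 0.11 at 10 weeks (adjusted p = 0.0215) and -1.69 ± 0.10 at 26 weeks (1.52e-08, 3.23-fold lower). The 10-week call was lost without WT mouse 3 or any of 175Q mice 1, 2 and 3 (adjusted p 0.0645 to 0.0681) and without the libraries with high Ttr (-0.31, adjusted p = 0.0907).

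Spink8 (ENSMUSG00000050074, chr9:109812280-109826633, plus strand), a Kazal-type protease inhibitor gene of CA1, had 14.4 to 17.4 CPM in WT and 10.1 to 15 CPM in 175Q at 10 weeks, with overlap, and 11.5 to 15.2 CPM in 175QK772T. For mice of 26 weeks, WT had 13.5 to 16.8 CPM, 175Q mice 3.91 to 5.59 CPM and 175QK772T mice 6.93 to 8.76 CPM, with none. It fell, with a log2 fold change of -0.45 ± 0.12 at 10 weeks (adjusted p = 0.0179) and -1.75 ± 0.12 at 26 weeks (8.33e-08). The 10-week call was lost without WT mouse 1 (-0.37, adjusted p = 0.0677) and without the libraries with high Ttr (-0.44, 0.0633).

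Neurod6 (ENSMUSG00000037984, chr6:55677822-55681263, minus strand), a basic helix-loop-helix factor of pyramidal neurons in the CA fields and the neocortex, had 188, 188, 203 and 222 CPM in WT at 10 weeks. The 175Q mice had 112, 112, 117 and 138 CPM and the 175QK772T mice 108, 127, 127 and 132 CPM. The older WT mice had 152, 170, 180 and 182 CPM, 175Q mice 52.6, 59.4, 60.8 and 72.6 CPM, and 175QK772T mice 78.0, 79.4, 83.0 and 92.7 CPM. WT stood apart from the mutants at both ages, and the mutants from each other at 26 weeks. Neurod6 fell in 175Q, with a log2 fold change of -0.80 ± 0.08 (adjusted p = 1.57e-05) and -1.59 ± 0.09 (1.66e-08) at the 2 ages.

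The K772T change was compared with WT and with 175Q. These comparisons share their WT or 175Q mice with the first one, so their values are given side by side. At both ages the group mean of every member was highest in WT, then in 175QK772T, then in 175Q. Against WT, 5 members fell in 175QK772T at 10 weeks, where 10.8% of all genes were called and 5.70% lower, and all 10 fell at 26 weeks, where 19% were called and 9.91% lower. The median log2 fold change of the members was -0.47 at 10 weeks and -1.06 at 26 weeks. The 5 genes at 10 weeks were Wfs1 (-1.60 ± 0.11), C1ql2 (-1.34 ± 0.10), Lct (-1.33 ± 0.15), Neurod6 (-0.71 ± 0.08) and C1ql3 (-0.45 ± 0.06), with adjusted p at most 0.000576. Among the other 5, values for Dsp were -0.49 ± 0.16 (adjusted p = 0.0734), for Spink8 -0.31 ± 0.12 (0.127) and for Fibcd1 -0.30 ± 0.11 (0.0971). Dsp was called without the libraries with high Ttr (-0.66, adjusted p = 0.0280) and without mouse 3 of 175QK772T alone (-0.60, 0.0371). At 26 weeks Dsp (-2.71 ± 0.22), C1ql2 (-2.67 ± 0.21) and Lct (-2.42 ± 0.19) were lowest relative to WT, and Prox1 (-0.53 ± 0.10) and C1ql3 (-0.58 ± 0.08) were nearest to it.

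Directly against 175Q, no member was called in 175QK772T at 10 weeks by edgeR, where 0.0332% of all genes were called. At an unadjusted p below 0.05 the count was 5, and DESeq2 called 2, C1ql2 (adjusted p = 7.67e-06) and Dsp (0.0133). The largest edgeR differences were 0.81 ± 0.17 for Dsp (adjusted p = 0.165) and 0.59 ± 0.10 for C1ql2 (0.0860), the latter called without mouse 4 of 175Q (0.65, adjusted p = 0.0410), and the smallest was 0.01 ± 0.11 for Wfs1. At 26 weeks 8 members were higher in 175QK772T than in 175Q, where 15.7% of all genes were called and 8.88% higher. C1ql2 rose by 1.47 ± 0.23 (adjusted p = 0.00104) and Lct by 1.47 ± 0.21 (0.000576), 2.77-fold and 2.76-fold. Fibcd1 rose by 1.00 ± 0.10 (5.91e-05), Spink8 by 0.73 ± 0.12 (0.00142) and C1ql3 by 0.57 ± 0.08 (0.000701). Neurod6 (0.49 ± 0.09), Wfs1 (0.44 ± 0.10) and Tdo2 (0.39 ± 0.12, adjusted p = 0.0433) also rose above 175Q. The Tdo2 values overlapped, and its call was lost in 7 of 8 fits that left out 1 mouse of either group (all but 175Q mouse 1; adjusted p 0.0537 to 0.122), in the fits without the sex term (0.0766) and without the filter that drops genes of low count (0.106), and without the libraries with high Ttr (0.0797). Prox1 (0.09 ± 0.10, adjusted p = 0.560) and Dsp (0.40 ± 0.24, 0.283) were not called. Dsp was called without mouse 2 of 175Q (0.76, adjusted p = 0.0044), whose 11.4 CPM was the highest of its group and which had the highest Ttr, and without all libraries with high Ttr (0.80, 0.00824).

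**Figure D3:**
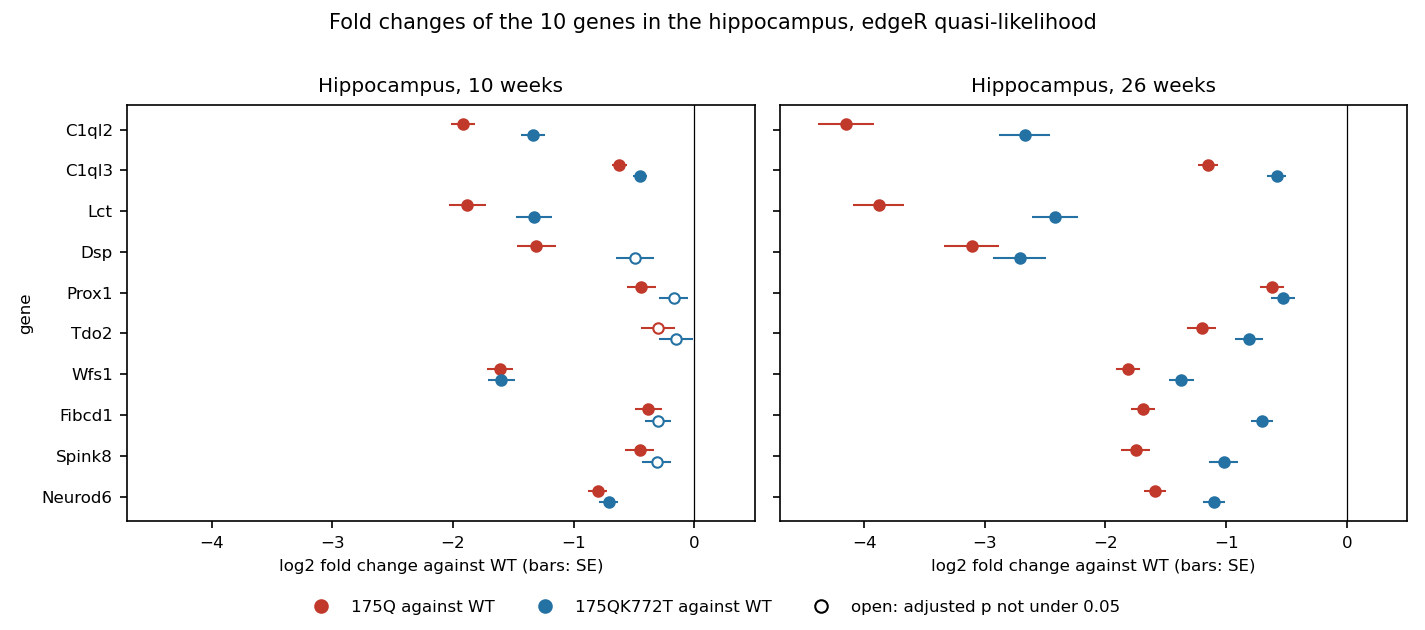
Log2 fold change against WT (horizontal axis, bars are the SE) for each gene in the hippocampus at 10 weeks (left) and 26 weeks (right), 175Q in red and 175QK772T in blue, with open circles where the adjusted p was not below 0.05. At 26 weeks all 20 points are filled, from -4.15 for C1ql2 to -0.53 for Prox1, and each blue point lies to the right of its red one.

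Expressed as a share of the 175Q log2 fold change, that of 175QK772T ran from 37.7% (Dsp) to 99.2% (Wfs1) at 10 weeks, with a median of 70.4%. At 26 weeks it ran from 41.1% (Fibcd1) to 87.3% (Dsp), with a median of 65.95%. Without the libraries with high Ttr the share for Dsp was 50% at 10 weeks and 76.7% at 26 weeks, below the 77.5% of Prox1, and at 10 weeks those of Fibcd1 and Tdo2 were 116% and 108%. The shares carry no test.

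Different mice were used at the 2 ages, and age cannot be told apart from the sequencing batch, but genotypes can be compared within each age and the differences set against each other. The 175Q difference in the hippocampus was larger at 26 than at 10 weeks for 8 members, where this interaction called 9.92% of all genes and 6.38% lower. The log2 fold change at 26 weeks minus that at 10 weeks was -2.24 ± 0.25 for C1ql2 (adjusted p = 1.17e-05), -2.03 ± 0.27 for Lct, -1.78 ± 0.30 for Dsp, -1.33 ± 0.17 for Fibcd1 and -1.32 ± 0.18 for Spink8. It was -0.90 ± 0.19 for Tdo2, -0.80 ± 0.13 for Neurod6 and -0.54 ± 0.11 for C1ql3. Prox1 (-0.20 ± 0.17, adjusted p = 0.530) and Wfs1 (-0.21 ± 0.16, 0.469) were not called, and Wfs1 was already at 34% of the WT mean at 10 weeks against 31% at 26 weeks. For 175QK772T against WT, 2 members were called, where 0.0734% of all genes were, Dsp (-2.24 ± 0.29, adjusted p = 0.00118) and C1ql2 (-1.33 ± 0.24, 0.0229). The C1ql2 call was lost without the libraries with high Ttr (-1.20, adjusted p = 0.174) and in 9 of the 16 fits that left out a single mouse of 175QK772T or WT (adjusted p 0.0507 to 0.0912): mice 3 and 4 of 175QK772T and 2 and 3 of WT at 10 weeks, and mice 1, 2 and 4 of 175QK772T and 1 and 3 of WT at 26 weeks. For 175QK772T against 175Q, 2.38% of all genes were called and 1 member, Fibcd1, whose difference was larger at 26 weeks by 0.97 ± 0.17 (adjusted p = 0.00378). C1ql2 (0.91 ± 0.26) and Lct (0.97 ± 0.28) had values of like size with a larger SE (adjusted p = 0.0695 and 0.0676), and Dsp had -0.46 ± 0.31. Leaving out single mice added calls here: C1ql2 without mouse 1 of 175Q at 26 weeks (1.29, adjusted p = 0.00372), Lct without that mouse or mouse 4 of 175QK772T at 26 weeks, Neurod6 without mouse 3 of 175Q at 26 weeks, and C1ql3 without mouse 2 of 175Q at 10 weeks or mouse 1 or 4 of 175Q or 3 of 175QK772T at 26 weeks.

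Other genes of the same cells and pathways were read from lists chosen with results of these data known. Beside the counts below, 9.90% of all genes tested fell in 175Q at 10 weeks and 20.4% at 26 weeks. Of 12 further granule cell genes, 11 fell in 175Q at 10 weeks and 12 at 26 weeks (median -0.76 and -0.93). Plk5, a polo-like kinase gene of neurons, went from 24.9 to 3.34 CPM on average at 10 weeks (-2.96 ± 0.13), and Stxbp6, which encodes the SNARE regulator amisyn, from 124 to 55 CPM (-1.22 ± 0.06). In 175QK772T, 10 and 11 of the 12 fell against WT, where 5.70% and 9.91% of all genes did. Of 10 CA1 genes 7 and 9 fell in 175Q, among them Lefty1, a secreted inhibitor of Nodal signalling (-1.71 ± 0.15 and -2.63 ± 0.15), and Gpr161, an orphan receptor of the primary cilium (-0.85 ± 0.10 and -1.21 ± 0.08). Of 10 CA2 genes 6 fell at each age, with Rgs14, a brake on CA2 plasticity, at -1.20 ± 0.07 and -1.78 ± 0.08, and of 9 CA3 genes 5 and 6 fell, with Bok, a BCL2 family gene, at -1.37 ± 0.09 and -1.69 ± 0.13. No gene of these 4 lists was called higher in 175Q with all mice and the low-count filter. Other fits called 1 CA1 gene higher (without the filter at both ages, without 175Q mouse 1 at 10 weeks, and without 175Q mouse 4 or WT mouse 3 at 26 weeks) or 1 CA2 gene higher (without the filter or the libraries with high Ttr at both ages, and without 175Q mouse 1 or WT mouse 2 at 26 weeks).

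Genes of newborn granule cells and of mossy cells were mixed. Shares of all genes called in 175Q, for comparison, were 19.6% at 10 weeks and 40.8% at 26 weeks. Of 8 newborn granule cell genes, only Dcx, the doublecortin gene of migrating young neurons, was called at 10 weeks, and it rose (0.37 ± 0.06, from 36.8 to 49.6 CPM). At 26 weeks Dcx again rose (0.74 ± 0.10, from 38.5 to 69.4 CPM) while 4 of the 8 fell, Sox4, a factor of immature neurons, among them (-0.36 ± 0.08). Dcx also rose in 175QK772T, by 0.34 ± 0.07 and 0.67 ± 0.10. Of 9 mossy cell genes 3 fell and 1 rose at 10 weeks, and 4 fell and 1 rose at 26 weeks, with Sv2c, a synaptic vesicle protein gene, at -0.34 ± 0.07 and -1.21 ± 0.10.

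Around the C1q-like ligands, 8 of 15 tested genes of C1q-like proteins, kainate receptors and their synaptic partners fell in 175Q at 10 weeks and 10 of 14 at 26 weeks, with none higher. Of all genes tested, 9.90% fell in 175Q at 10 weeks and 20.4% at 26 weeks. Genes of this list that fell included those of the adhesion receptors Adgrb2 (-0.50 ± 0.05 and -0.94 ± 0.07) and Adgrb1 (-0.39 ± 0.06 and -0.70 ± 0.06), both paralogues of the C1q-like receptor gene Adgrb3. The kainate receptor subunit gene Grik5 fell at 26 weeks (-0.50 ± 0.06). Beside Neurod6, of 9 neuronal basic helix-loop-helix factors 4 fell and 1 rose at 10 weeks, the latter being Neurog2, a proneural factor (1.30 ± 0.18, from 1.03 to 2.61 CPM), and 5 fell and 1 rose at 26 weeks, among them Neurod2 (-0.83 ± 0.09). Of the tryptophan and kynurenine pathway beside Tdo2, 3 of 9 tested genes rose at 26 weeks and none fell, namely Afmid, the kynurenine formamidase gene (1.77 ± 0.19), Tph2, which starts serotonin synthesis (0.88 ± 0.20), and Kyat1 (0.27 ± 0.07). At 10 weeks 3 of 10 rose. Of all genes tested 19.6% were called at 10 weeks and 40.8% at 26 weeks, and the 26-week share of the pathway is below that. Beside Wfs1, 4 of 15 genes of the endoplasmic reticulum stress response fell at 10 weeks, and 6 fell and 1 rose at 26 weeks, with the stress sensor gene Atf6 at -0.54 ± 0.05 and -0.47 ± 0.05. Beside Dsp, 1 of 9 desmosome and adhesion genes fell and 1 rose at 10 weeks, and 2 fell and 2 rose at 26 weeks. For this list and the endoplasmic reticulum list the shares called are near those of all genes, 19.6% and 40.8%. The plakophilin gene Pkp2 went from 30.8 to 16.2 CPM at 26 weeks (-1.04 ± 0.08) and the desmocollin gene Dsc2 from 1.27 to 2.24 CPM (0.71 ± 0.17). Of the activity-regulated genes 4 of 12 fell at 10 weeks and 8 of 11 at 26 weeks, where 9.90% and 20.4% of all genes fell. Bdnf was among them (-0.39 ± 0.08 and -1.37 ± 0.12). The 10-week count was 9 without 175Q mouse 2, without the libraries with high Ttr or without the filter, and 2 without 175Q mouse 1 or 3 or WT mouse 1, 2 or 4.

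Markers of several other cell types moved as well. For comparison, 9.90% of all genes tested fell in 175Q at 10 weeks and 20.4% at 26 weeks. Of 12 interneuron markers 10 fell in 175Q at 10 weeks and 11 at 26 weeks, and their summed level was 1140 to 1240 CPM in WT and 861 to 927 CPM in 175Q at 10 weeks, and 997 to 1180 against 661 to 761 CPM at 26 weeks. Of 12 astrocyte markers 6 fell at 10 weeks and 12 at 26 weeks (summed 6220 to 6620 CPM in WT and 4120 to 4620 CPM in 175Q at 26 weeks). No microglia marker was called at 10 weeks and all 12 fell at 26 weeks (571 to 640 and 529 to 578 CPM). Of 12 oligodendrocyte markers 0 and 1 were called (1 and 7 without the low-count filter), and summed levels overlapped between genotypes (5380 to 8070 CPM in WT and 5640 to 7650 CPM in 175Q at 26 weeks). The 10-week astrocyte count was 9 without 175Q mouse 2, with DESeq2 or without the libraries with high Ttr and 11 without the filter, and the 26-week microglia count was 8 without WT mouse 1. In 175QK772T at 26 weeks the interneuron sum was 885 to 941 CPM and the astrocyte sum 5250 to 5550 CPM, between WT and 175Q in both cases. For tissue beside the hippocampus, 4 of 11 neocortical, 4 of 10 thalamic, 1 of 10 striatal and 3 of 8 subiculum markers fell at 10 weeks, and 9 of 11, 4 of 10, 6 of 10 and 5 of 7 at 26 weeks, with 1 subiculum marker higher at each age. The striatal count at 10 weeks is near the share of all genes that fell, 9.90%. Without the filter the 10-week counts were 8 neocortical, 5 striatal and 5 subiculum markers, without 175Q mouse 2 they were 3 striatal and 2 subiculum, and the 26-week thalamic count was 7 without 175Q mouse 3. Summed choroid plexus markers ran from 210 to 5350 CPM in WT and from 227 to 4970 CPM in 175Q at 10 weeks, and from 214 to 3350 and from 225 to 11300 CPM at 26 weeks, with no call. Without the filter 10 of these markers were called lower at 10 weeks and 11 higher at 26 weeks, and without the libraries with high Ttr 1 was lower and 1 higher at 10 weeks and 2 lower and 1 higher at 26 weeks. Calls made only without the filter carry little weight, here and elsewhere, since that fit often gave far smaller p-values at like fold changes. Of the markers in these lists, 1 of the subiculum list was at 0 at 26 weeks and no other. The part of these cells in the results for the 10 genes was not tested.

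Outside the hippocampus the 10 genes did not fall together. Spink8 had too few counts to be tested in cerebellum, brainstem and medulla, which leaves 38 tests over the 4 other regions of each age. In 175Q the calls at 10 weeks were 5 in cortex (38.2% of all genes called there), 4 in striatum (32.7%), 1 in cerebellum (11.4%) and 1 in brainstem (2.93%). At 26 weeks they were 6 in cortex (31.6%) and 1 each in striatum (45.4%), cerebellum (3.01%) and medulla (18.5%). In 175QK772T against WT there were 9 calls at 10 weeks, namely 5 in cortex (25.9%), 2 in striatum (19%), 2 in cerebellum (4.04%) and none in brainstem (0.0331%), where edgeR gave 1 member an unadjusted p below 0.05. At 26 weeks there were 7, namely 4 in cortex (8.83%), 2 in striatum (23.4%), 1 in cerebellum (0.298%) and none in medulla (2.08%), where 2 members had an unadjusted p below 0.05 and DESeq2 called C1ql3. Between 175QK772T and 175Q none of the 38 tests at 10 weeks was called by edgeR, 5 had an unadjusted p below 0.05, and DESeq2 called 1, Neurod6 in striatum. Backgrounds there were 1.05% in cortex, 0.600% in striatum, 1.19% in cerebellum and 0.0568% in brainstem. At 26 weeks 3 were called, 1 in cortex (3.46%) and 2 in striatum (13.6%), with none in cerebellum (0.0992%) or medulla (9.46%), where 1 member each had an unadjusted p below 0.05 and DESeq2 called C1ql2 in medulla.

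**Figure D4:**
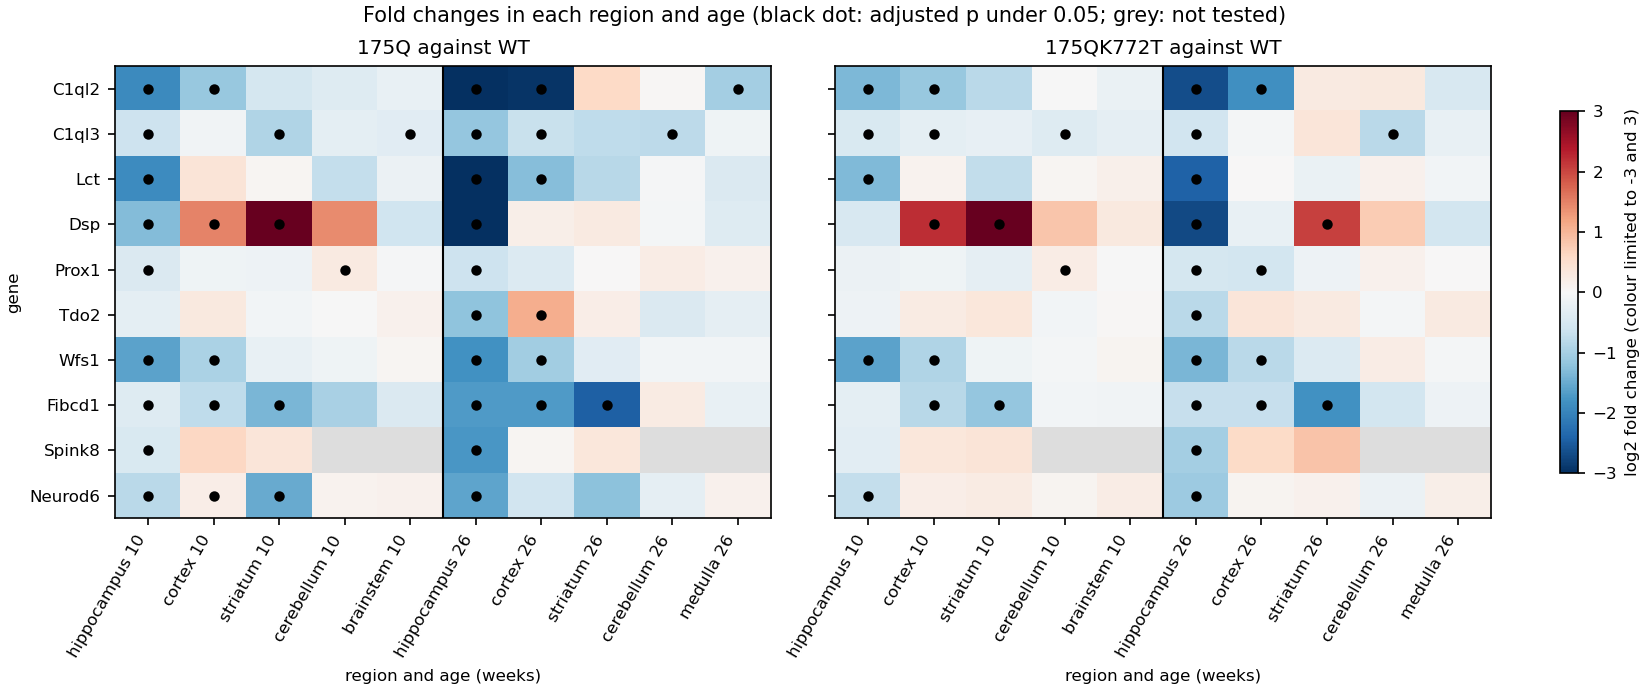
Log2 fold change against WT for each gene (rows) in each region and age in weeks (columns), for 175Q (left) and 175QK772T (right), red higher and blue lower, with the colour limited to -3 and 3, a dot where the adjusted p was below 0.05 and grey where the gene was not tested. The hippocampus at 26 weeks is blue with a dot for all 10 genes in both mutants, while Dsp is red with a dot in cortex and striatum at 10 weeks.

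Dsp showed opposite directions in different regions. In the striatum at 10 weeks WT mice had 0.337, 0.472, 0.634 and 1.15 CPM, 175Q mice 3.15, 6.08, 7.24 and 10.1 CPM, and 175QK772T mice 6.58, 7.27, 7.36 and 9.15 CPM. All 8 mutant mice lay above all WT mice, and Dsp rose 9.68-fold in 175Q (3.28 ± 0.36, adjusted p = 1.89e-05) and 10.6-fold in 175QK772T (3.41 ± 0.36, 3.57e-05). In the 26-week mice, WT had 0.501, 0.961, 1.01 and 3.57 CPM in striatum, 175Q mice 1.27, 2.01, 2.2 and 2.27 CPM, and 175QK772T mice 5.72, 6.28, 6.30 and 6.75 CPM. There the 175QK772T mice were above all others, and Dsp rose in them against WT (2.05 ± 0.44, adjusted p = 0.00546) and against 175Q (1.78 ± 0.43, 0.0182), while 175Q overlapped WT (0.27 ± 0.45). Without WT mouse 4, which had 3.57 CPM, Dsp was called in 175Q too (1.04, adjusted p = 0.0109), and the difference between the mutants was not called without mouse 2 of 175Q or mouse 2 of 175QK772T (adjusted p 0.0540 to 0.0610). In the cortex at 10 weeks it went from 0.245 ± 0.142 CPM in WT to 0.689 ± 0.111 in 175Q (1.48 ± 0.32, adjusted p = 0.00129) and 1.08 ± 0.202 in 175QK772T (2.21 ± 0.32, 5.63e-05), without overlap with WT. At 26 weeks the cortical values overlapped, with WT mouse 1 at 3.37 CPM and the other WT mice at 0.270 to 0.897 CPM. Without that WT library Dsp was called higher in 175Q (1.35, adjusted p = 0.00898). In cerebellum at 10 weeks the difference in 175Q, 1.41 ± 0.45, was not called (adjusted p = 0.0621), but it was without WT mouse 1 (1.78) or 3 (0.99). Even in the mutants the striatal level stayed below that of WT hippocampus, 63.9 ± 5.92 CPM at 10 weeks.

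**Figure D5:**
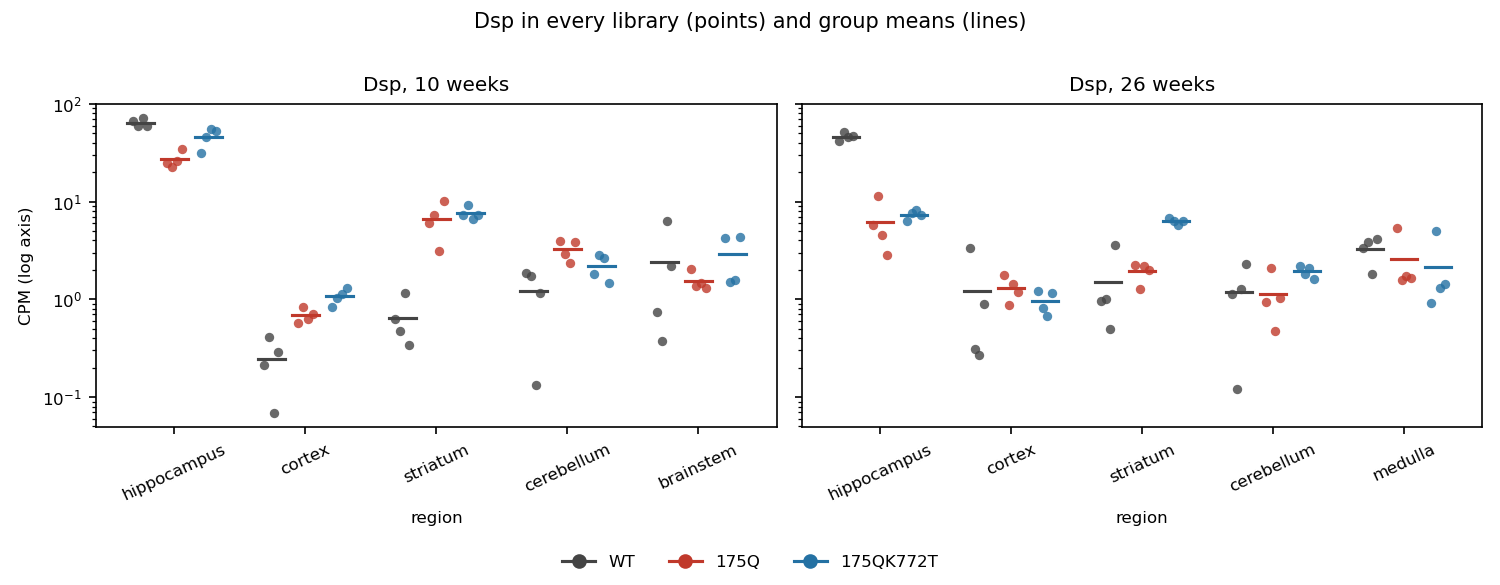
Dsp in CPM (log axis) in every library of 5 regions at 10 weeks (left) and 26 weeks (right), WT in black, 175Q in red and 175QK772T in blue, 4 points per group with a line at the mean. The mutant points lie below WT in hippocampus and above WT in cortex and striatum at 10 weeks, and at 26 weeks the 175QK772T mice stand at 5.72 to 6.75 CPM in striatum, above all WT and 175Q mice.

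Fibcd1 and Wfs1, both CA1 genes that other forebrain neurons also express, fell in other forebrain regions. In the striatum Fibcd1 had 15.3 to 18.8 CPM in WT and 5.72 to 10.8 CPM in 175Q at 10 weeks, and 11.5 to 15.2 CPM against 2.26 to 3.82 CPM at 26 weeks. WT and 175Q were apart at both ages, and it fell, with a log2 fold change of -1.37 ± 0.16 and -2.46 ± 0.17 (adjusted p = 3.92e-05 and 3.59e-07). In 175QK772T the values were -1.16 ± 0.17 and -1.82 ± 0.17, both called. In the cortex Fibcd1 fell in 175Q, with a log2 fold change of -0.76 ± 0.19 at 10 weeks and -1.69 ± 0.18 at 26 weeks, and in 175QK772T with -0.83 ± 0.19 and -0.69 ± 0.18. Against 175Q it was higher in 175QK772T at 26 weeks by 0.99 ± 0.18 in cortex (adjusted p = 0.0173) and by 0.64 ± 0.17 in striatum (0.0279, with overlapping values). Wfs1 had 58.3 to 71.9 CPM in WT cortex at 10 weeks against 32.1 to 38 CPM in 175Q and 34.5 to 41.5 CPM in 175QK772T, with no overlap with WT. It fell in cortex in both mutants at both ages (175Q -0.96 ± 0.07 and -1.05 ± 0.11, 175QK772T -0.91 ± 0.07 and -0.80 ± 0.11). In the striatum, where its WT values overlapped those of the hippocampus, 175Q had 105 to 139 CPM and WT 110 to 144 CPM at 10 weeks, and Wfs1 was not called there with all mice and the low-count filter. In striatum of 175QK772T at 26 weeks it was called lower without mouse 4 of that genotype (-0.57, adjusted p = 0.0298), and without the filter it was called lower there (-0.41) and in 175Q at both ages (-0.23 and -0.32).

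The C1q-like genes fell in several regions. C1ql2 in cortex went from 1.61 ± 0.855 CPM in WT to 0.773 ± 0.254 in 175Q at 10 weeks (-1.13 ± 0.39, adjusted p = 0.0310) and from 3.48 ± 1.80 to 0.480 ± 0.357 CPM at 26 weeks (-2.95 ± 0.50, 0.00111), and in 175QK772T it fell, with a log2 fold change of -1.14 ± 0.39 and -1.84 ± 0.47. With DESeq2 the 10-week calls in cortex were lost (adjusted p = 0.0649 in 175Q and 0.0948 in 175QK772T). C1ql2 also fell in medulla of 175Q at 26 weeks (-1.01 ± 0.16). C1ql3 fell in cerebellum at 26 weeks in both mutants, from 10.8 to 14 CPM in WT to 5.82 to 8.47 CPM in 175Q (-0.78 ± 0.13) and 6.32 to 7.18 CPM in 175QK772T (-0.82 ± 0.13), with no overlap with WT. Further falls of C1ql3 in 175Q were -0.33 ± 0.08 in brainstem and -0.90 ± 0.25 in striatum at 10 weeks and -0.66 ± 0.20 in cortex at 26 weeks, and in 175QK772T -0.29 ± 0.08 in cortex and -0.38 ± 0.10 in cerebellum at 10 weeks. In the striatum C1ql3 and Neurod6 were high or low in the same mice within groups: at 26 weeks 175QK772T mouse 4 had 5.25 and 3.09 CPM of the 2 genes and the other 3 mice had 29.2 to 34.4 and 26.9 to 42.7 CPM. Both are cortical genes, and the part of tissue next to the striatum in these values was not tested. For C1ql2, whose cortical CPM was far below its hippocampal level, the part of tissue next to the cortex was not tested either.

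The remaining members gave few calls. Neurod6 rose in cortex of 175Q at 10 weeks (0.20 ± 0.07, from 51.2 to 66.8 CPM in WT to 68.2 to 76.5 CPM). In 175QK772T the cortical values were 67.6 to 78.5 CPM, also above all WT mice (0.19 ± 0.07, adjusted p = 0.0567), a difference called by DESeq2 (0.0287), without the sex term (0.0455), without the filter (0.000186), and without 175QK772T mouse 1 or WT mouse 2 or 3. The gene fell in striatum of 175Q at 10 weeks (-1.51 ± 0.39). Prox1 rose in cerebellum at 10 weeks in 175Q (0.26 ± 0.04, adjusted p = 0.000315) and 175QK772T (0.23 ± 0.04), from 54.1 to 61.2 CPM in WT to 67.3 to 71.2 and 65.6 to 72.2 CPM, and fell in cortex of 175QK772T at 26 weeks (-0.56 ± 0.15). In the cortex of 175Q at 26 weeks Lct fell (-1.27 ± 0.33) and Tdo2 rose (1.10 ± 0.36, adjusted p = 0.0371), at levels near 1 CPM. Spink8 was not called outside the hippocampus with all mice and the low-count filter, but in striatum of 175QK772T at 26 weeks it was called higher without WT mouse 1 (1.22, adjusted p = 0.0163) and without the filter (0.85, 0.0392). Neurod6 in cortex at 26 weeks rested on WT mouse 1: without it the gene was lower in 175Q (-0.90, adjusted p = 2.1e-09) and in 175QK772T (-0.24, 0.00854), while with all mice neither was called.

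Many of the smaller calls outside the hippocampus did not hold when 1 mouse was left out. C1ql3 lost its brainstem call at 10 weeks without any one mouse but WT 3 (adjusted p 0.0538 to 0.149), its 10-week cerebellar call in 175QK772T without any but WT 4 (0.0578 to 0.170), and its 26-week one there without any of the 8 mice (0.0727 to 0.145). Its call in cortex of 175Q at 26 weeks was lost without 175Q mouse 1, 2 or 4 or WT mouse 2, 3 or 4, and that in striatum at 10 weeks without 175Q mouse 1 or WT mouse 1. C1ql2 in cortex at 10 weeks lost its call in 175Q without 175Q mouse 2 or 4 or WT mouse 2 or 3, and in 175QK772T without mouse 1, 2 or 3 of either group. At 26 weeks its call in cortex of 175QK772T was lost without any mouse of that genotype or WT mouse 2. Neurod6 in cortex of 175Q at 10 weeks lost its call without 175Q mouse 2, 3 or 4 or WT mouse 1 or 4, and Tdo2 in cortex at 26 weeks without any 175Q mouse or WT mouse 2 or 4 (0.0612 to 0.102). In cortex at 26 weeks Fibcd1 in 175QK772T against WT lost its call without mouse 1, 2 or 3 of 175QK772T or 2, 3 or 4 of WT, and against 175Q without 175Q mouse 2 or 4 or 175QK772T mouse 1, 2 or 4; in striatum the latter was lost without mouse 1, 2 or 3 of 175Q or 2, 3 or 4 of 175QK772T. Prox1 in cortex of 175QK772T was lost without mouse 1, 2 or 4 of that genotype or WT mouse 2. By contrast, Fibcd1 against WT in striatum, Wfs1 in cortex and Dsp against WT in striatum and cortex at 10 weeks were called in every one of these fits.

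Whether a log2 fold change differed between hippocampus and cortex was tested in the same mice, with the mouse as a block. The value is the hippocampal log2 fold change minus the cortical one, so a rise in cortex also makes it negative. In cortex Dsp rose in both mutants and Neurod6 in 175Q at 10 weeks, and Tdo2 rose in 175Q at 26 weeks. The hippocampal difference of Dsp in 175QK772T at 10 weeks was not called. In 175Q at 10 weeks 6 members differed between the regions, all with the lower log2 fold change in hippocampus, where 12.1% of all genes were called and 6.48% lower. The interaction was -2.75 ± 0.32 for Dsp, -2.29 ± 0.23 for Lct, -1.03 ± 0.08 for Neurod6, -0.67 ± 0.12 for Wfs1, -0.55 ± 0.10 for C1ql3 and -0.35 ± 0.09 for Prox1. C1ql2 was not called (-0.85 ± 0.41, adjusted p = 0.211), and for Fibcd1 the value was 0.37 ± 0.25. At 26 weeks 4 members were called, where 2.72% of all genes were, Dsp (-3.60 ± 0.73), Lct (-2.65 ± 0.42), Tdo2 (-2.31 ± 0.36) and Wfs1 (-0.74 ± 0.12). For 175QK772T against WT the calls at 10 weeks were Dsp (-2.58 ± 0.30), Lct (-1.35 ± 0.23), Neurod6 (-0.95 ± 0.08) and Wfs1 (-0.70 ± 0.12), with 6.54% of all genes called. At 26 weeks they were Lct (-2.43 ± 0.37) and Wfs1 (-0.56 ± 0.12, adjusted p = 0.0499), with 1.18% called. Leaving out WT mouse 1 of 26 weeks raised these 26-week counts to 6 in 175Q and 5 in 175QK772T, with Neurod6 and C1ql2 added in both and Dsp in 175QK772T (-3.70, adjusted p = 0.000786). The 26-week call of Dsp in 175Q was lost without 175Q mouse 1, 3 or 4 (adjusted p 0.0527 to 0.0670), that of Wfs1 in 175QK772T without any mouse of that genotype or WT mouse 3 or 4 (0.0746 to 0.156), and the 10-week call of Prox1 without 175Q mouse 2 or 3 (0.0509 to 0.0578). At 10 weeks Fibcd1 was called in 175Q, in the opposite direction, without 175Q mouse 2 (0.76, adjusted p = 0.00729). Calls added in the direction of lower in hippocampus were Spink8 in 175Q without 175Q mouse 4 (-1.35, adjusted p = 0.0462) and C1ql3 in 175QK772T without WT mouse 2 (-0.31, 0.0241). Between 175QK772T and 175Q no gene of all was called at either age (0% in edgeR, and no member in DESeq2), and 3 members at 10 weeks and 1 at 26 weeks had an unadjusted p below 0.05.

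The genes most like each member across the 10 WT group means (5 regions at 2 ages) were found by Pearson's r of log2 CPM among 14766 genes, as a description over points that share mice and libraries. Closest to C1ql3 was Tmem200a (r = 0.996), to Spink8 Olfr550 (0.994), to Neurod6 the NMDA receptor gene Grin2a (0.991), to Fibcd1 Plcz1 (0.991), and to Prox1 Zfp608 (0.987). C1ql2 was matched by Top1mt (0.983), Tdo2 by Syce2 (0.983), Wfs1 by Sox1ot (0.982), Dsp by the growth factor gene Tgfb2 (0.981) and Lct by Tmem74 (0.980). In the hippocampus of 175Q these genes did not all move with their member. Tmem200a (-0.51 ± 0.07 and -0.88 ± 0.07), Grin2a (-0.85 ± 0.09 and -1.37 ± 0.06), Syce2, Sox1ot and Tgfb2 fell at both ages and Zfp608 at 26 weeks. Plcz1 rose at both ages (1.06 ± 0.12 and 0.47 ± 0.17), and Top1mt, Tmem74 and Olfr550 were not called at either.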

How the data were processed

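Poly(A) RNA was sequenced as 150-nt read pairs on a NovaSeq, and the 2 ages were prepared and sequenced separately, per the labels' protocols. The submitters' processing notes name bcl2fastq 2.20.0, Trimmomatic 0.33, HISAT2 2.1.0, featureCounts of Subread 1.6.2 and GRCm38. The authors deposited raw counts of read pairs per gene for each age. The 10-week counting used reversely stranded pairs with both ends mapped and mapping quality of at least 10, per the file headers; the settings of the 26-week counts are not given in the sources used here. 

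From these counts, each region and age was fitted over its 3 genotypes with edgeR 4.0.16 in R 4.3.3 (TMM, filterByExpr, genotype and sex, quasi-likelihood test, Benjamini-Hochberg over all genes tested). All 3 genotypes shared one estimate of spread. Differences between ages or between hippocampus and cortex were tested as interactions, the latter with the mouse as a block in place of sex. The SE of a fold change is its size divided by the square root of the quasi-likelihood F. CPM use the library total, so their ratios differ slightly from fitted folds. Alternatives were DESeq2 1.42.0, RLE scaling, a fit of all genes regardless of count, one without sex, the replicate number as a block, leaving out each mouse and, chosen after seeing the data, leaving out hippocampal libraries with Ttr above 500 CPM. Depth was 68.2 M to 104 M pairs at 10 weeks and 28 M to 57.3 M at 26 weeks. On simulated counts with known changes, the 10-week hippocampal fit recovered 72% of 50 genes changed 2-fold and 94% of 50 changed 4-fold, and the 26-week fit 74% and 90%. The changed genes were drawn from all that passed the filter and were far fewer than those called in the data. These rates therefore need not hold for the members.

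The members and the 21 lists (225 of 227 genes matched by symbol) were chosen with earlier results of these data known. All members were described. Other genes named are Atxn1, Ttr, up to 3 genes per list with the smallest adjusted p among those called in hippocampus of 175Q at that age, and the 2 genes most like each member by Pearson's r of log2 CPM (prior count 2) over 10 WT group means with at least 1 CPM in a group, of which the first is printed. Descriptions of 26-week samples name another repeat length than their genotype field, and the genotype field was used.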

Additional observations from a re-analysis of the deposited data

Results flagged for a closer look

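In each of the 300 groups of 4 mice (10 genes, 30 groups), the highest or lowest CPM was compared with the rest, and 23 groups had a gap to the rest above the 95% limit of Dixon for 4 values, where chance flags about 1 in 20. In the hippocampus these were 3: Lct at 17.8 CPM in a 175Q mouse at 10 weeks (others 12.1 to 12.9), Fibcd1 at 149 CPM in the same mouse, number 4 (others 99.3 to 108), and Lct at 5.34 CPM in a 175QK772T mouse at 26 weeks (others 9.20 to 9.77).

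In the striatum at 10 weeks, mouse 2 of 175Q was high for C1ql2 (2.17 CPM, others 1.02 to 1.21), Lct (0.729, others 0.123 to 0.212) and Fibcd1 (10.8, others 5.72 to 6.55). Other striatal values apart from their groups were C1ql2 at 1.83 CPM in 175QK772T at 10 weeks (others 0.769 to 0.893) and at 0.680 CPM in 175Q at 26 weeks (others 1.01 to 1.03), Wfs1 at 110 CPM in WT at 10 weeks (others 141 to 144), and Dsp at 3.57 CPM in WT at 26 weeks (others 0.501 to 1.01). In the cortex they were Prox1 at 16 CPM in 175Q at 10 weeks (others 14.5 to 14.6) and at 33.7 CPM in WT at 26 weeks (others 19.7 to 21.3), and Wfs1 at 41.5 CPM in 175QK772T at 10 weeks (others 34.5 to 35.7).

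In the cerebellum at 10 weeks C1ql2 was at 0.382 CPM (others 0.639 to 0.691) and Wfs1 at 43.1 CPM (others 38.2 to 39) in 1 mouse each of 175QK772T. At 26 weeks Prox1 was at 46.4 CPM (others 77.6 to 79.9) and Wfs1 at 46.6 CPM (others 32.8 to 34.7) in 175Q, and Neurod6 at 10.5 CPM in WT (others 7.29 to 7.39). In WT brainstem at 10 weeks C1ql3 reached 33.3 CPM (others 26.1 to 27.3) and Tdo2 0.481 CPM (others 0.339 to 0.360). In the medulla at 26 weeks Prox1 was at 45.9 CPM in WT (others 39 to 39.8), and Dsp at 5.41 CPM in 175Q (others 1.56 to 1.74) and 4.99 CPM in 175QK772T (others 0.923 to 1.43).

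Genotype differences that themselves differed between ages in the hippocampus, on the log2 scale at 26 minus 10 weeks, were those of 175Q against WT for C1ql2 (-2.24), Lct (-2.03), Dsp (-1.78), Fibcd1 (-1.33), Spink8 (-1.32), Tdo2 (-0.90), Neurod6 (-0.80) and C1ql3 (-0.54). For 175QK772T against WT they were those of Dsp (-2.24) and C1ql2 (-1.33), and against 175Q that of Fibcd1 (0.97). Between hippocampus and cortex, 175Q against WT differed at 10 weeks for Dsp (-2.75), Lct (-2.29), Neurod6 (-1.03), Wfs1 (-0.67), C1ql3 (-0.55) and Prox1 (-0.35), and at 26 weeks for Dsp (-3.60), Lct (-2.65), Tdo2 (-2.31) and Wfs1 (-0.74). For 175QK772T against WT it did so at 10 weeks for Dsp (-2.58), Lct (-1.35), Neurod6 (-0.95) and Wfs1 (-0.70), and at 26 weeks for Lct (-2.43) and Wfs1 (-0.56).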

How the results depend on the processing

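In the hippocampus, 175Q against WT at 26 weeks called all 10 genes whichever mouse was left out, and so did 175QK772T against WT. At 10 weeks leaving out 1 mouse gave 7 to 10 calls in 175Q, 5 to 6 in 175QK772T and 0 to 1 between the mutants, and at 26 weeks 7 to 8 between the mutants. Differences between ages ran from 8 to 8, 1 to 2 and 1 to 4 calls for 175Q against WT, 175QK772T against WT and the mutants against each other. Hippocampus against cortex gave 5 to 7, 4 to 5 and 0 to 0 at 10 weeks, and 3 to 6, 1 to 5 and 0 to 0 at 26 weeks. Calls summed over the other 4 regions ran from 9 to 12, 7 to 9 and 0 to 2 at 10 weeks, and 7 to 13, 3 to 8 and 1 to 3 at 26 weeks. Neurod6 in cortex of 175QK772T at 26 weeks ranged from -0.24 (without WT mouse 1, a reversal) to 0.46 (without WT mouse 3).

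Without the low-count filter, counts rose in the other regions to 19 (175Q), 14 (175QK772T) and 6 (between mutants) at 10 weeks and to 14, 12 and 10 at 26 weeks. That fit often gave far smaller adjusted p-values from the same mice. For C1ql2 between mutants in the hippocampus at 10 weeks the edgeR value was 7.4e-25 against 0.086 with the filter, both at 0.59. Calls of that fit alone therefore carry little weight. In the hippocampus at 10 weeks they rose to 9 for 175QK772T against WT and 5 between mutants, for differences between ages to 7 and 8, and for hippocampus against cortex to 2 between mutants at 10 weeks and 4 for 175QK772T at 26 weeks. DESeq2 gave 2 calls between mutants in the hippocampus at 10 weeks, 1 and 6 in the other regions at 10 and 26 weeks, 6 for their difference between ages, and 4 for 175QK772T in hippocampus against cortex at 26 weeks. The mutants' difference between ages gave 2 calls with RLE scaling and 2 without the sex term, and without that term the other regions gave 1 between mutants at 10 weeks. Without the libraries with high Ttr, 175QK772T differed between ages for 1 gene. The cause was not tested.

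Replicate numbers did not pair the mice: deviations of same-numbered hippocampal libraries correlated at -0.59 to 0.63 over 24 pairs, 12 of them above 0.1. With the number as a replicate block, differences between ages gave 4 calls between mutants and 1 for 175QK772T against WT, and the other regions gave 4 for 175QK772T against WT at 26 weeks. Dsp in hippocampus of 175QK772T at 10 weeks was called under the block (-0.54, adjusted p = 0.0367), Neurod6 in cortex of that genotype at 10 weeks too (0.0158), and the 26-week call of Tdo2 between mutants in the hippocampus was lost (0.0755). Without the mouse block, hippocampus against cortex gave 1 call for 175QK772T at 26 weeks. In simulated 26-week data that comparison recovered 12% of genes changed 1.5-fold and 54% of those changed 2-fold, which limits what it can show for small differences. The simulation changed 50 genes per fold, drawn at any level from 20858 genes, so its rates need not hold for the members. It gave each gene the same mean in both regions, with no effect shared by the libraries of a mouse. Its rates therefore need not hold for the real comparison either.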

Other observations

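Some hippocampal libraries were the extreme of their group for most of the 10 genes, a pattern chosen after its values were seen. At 10 weeks mouse 4 of 175Q had the highest CPM of its group for 8 genes and mouse 2 the lowest for 7, and mouse 1 of 175QK772T had the lowest for 8. At 26 weeks mouse 4 of WT and mouse 3 of 175Q each had the lowest CPM of their group for 6 genes.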
